A study of Homo sapiens with 3 samples.

Results

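The genes described here encode the proteasome, the protease complex that degrades ubiquitin-tagged proteins. They were chosen by name, as every gene of the deposited table called PSMA, PSMB, PSMC, PSMD, PSME, PSMF or PSMG followed by a number, which gave 48 of 58039 listed genes. The RNA came from T47D, a human breast cancer line that carries the estrogen receptor. The long noncoding RNA ERINA was knocked down in 2 libraries, each with its own small hairpin RNA (shRNA1 or shRNA2), and 1 library was the control, which is named shCtrl in one label while another gives its shRNA as none. The hairpins were delivered by lentivirus, and no library has a repeat.

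The proteasome core, called 20S, is a barrel of stacked rings. The outer rings are built from alpha subunits (PSMA genes), which form the gate, and the inner rings from beta subunits (PSMB genes), of which PSMB5, PSMB6 and PSMB7 carry the peptide-cutting sites. The 19S cap binds ubiquitin chains, removes them and threads the substrate into the core. Its base holds a ring of ATPases (PSMC genes) with a few non-ATPase subunits, and its lid holds further PSMD subunits. After interferon exposure, and constantly in immune cells, PSMB8, PSMB9 and PSMB10 take the place of the constitutive cutting subunits and form the immunoproteasome, which yields peptides suited to presentation on MHC class I. Dedicated chaperones assemble the core (PSMG genes) and the base (PSMD5, PSMD9 and PSMD10), and PSME proteins are alternative caps.

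Expression is given as FPKM, in which fragment numbers are divided by transcript length and by library depth, so levels can be set side by side between genes. Changes are differences of log2(FPKM + 0.5), knockdown minus control, tested with limma over the 13112 genes whose FPKM averaged 1 or more. The total was 860240 FPKM with shRNA1, 808451 with shRNA2 and 790290 in the control. ERINA, listed as LINC00992, was at 5.21 FPKM with shRNA1 and 8.91 with shRNA2, against 63.4 in the control. All 8 luminal markers were measured, and none passed limma over all genes. When only protein-coding genes were tested, limma called 3 of them (PGR, FOXA1 and KRT19) higher, where 7.11% of the genes in that test were. The estrogen receptor ESR1 was at 16.5 and 17.96 FPKM with the shRNAs and 16.8 in the control. The 4 fibroblast markers summed to 4.24 and 4.32 FPKM with the shRNAs and 2.98 in the control, the 3 endothelial markers to 0.0259 and 0.0437 FPKM against 0.0208, and the 7 leukocyte markers to 2.12 and 2.40 FPKM with the shRNAs and 4.22 in the control. CD3E and MS4A1 were listed at 0 in all 3 libraries. In these bulk libraries fewer cells with a transcript and less of it per cell cannot be told apart.

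Of the 48 proteasome genes, 46 passed the filter on low values, and all 48 had the deposited status OK in every library. The remaining pair are tissue-restricted paralogs. PSMA8, an alpha subunit of male germ cells, was listed at 0 in all 3 libraries. PSMB11, the beta subunit of thymic epithelium, was listed at 0 with shRNA1 and in the control and at 0.0142 FPKM with shRNA2. The measured genes spanned a wide range of levels, with PSME4 lowest at 9.95 and 9.37 FPKM with the shRNAs and 9.58 in the control. Together the 48 genes summed to 5661 FPKM with shRNA1, 5836 with shRNA2 and 6328 in the control, so the knockdown sums stood at 89.5% and 92.2% of the control.

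**Figure D1:**
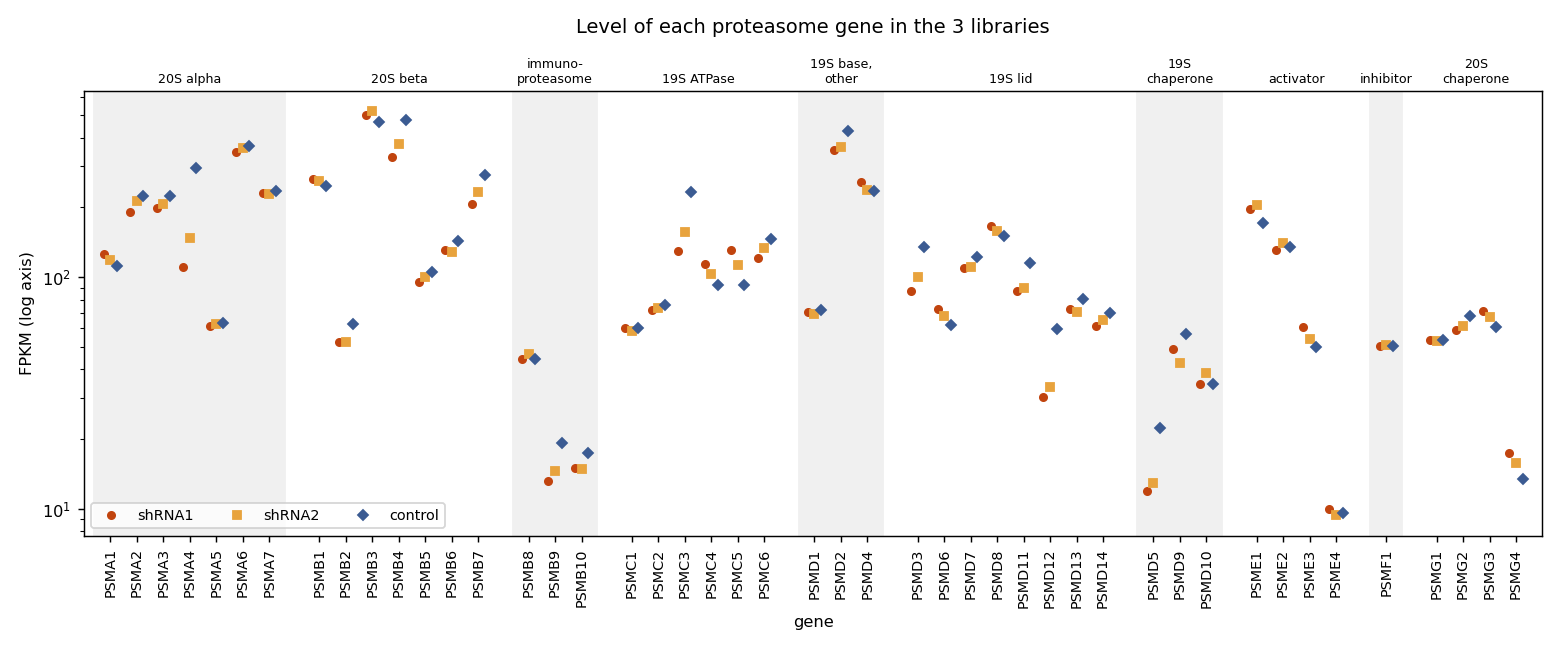
FPKM of the 46 measured proteasome genes on a log axis, 1 point per library (shRNA1, shRNA2 and control) and genes grouped by class. Most triplets lie close together, while PSMA4, PSMC3, PSMD12 and PSMD5 have a control point well above both shRNA points, and PSMC5 a control point below both.

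Most proteasome genes lay close to the control. In limma over all genes, 0 of 46 members had an adjusted p (Benjamini-Hochberg) under 0.05 in either direction (where 0.267% of all genes tested were called lower and 0.0839% higher). ERINA, the target of the hairpins, also missed this threshold (limma adjusted p of 0.0816), so missing it does not show that a gene was unchanged. At an unadjusted p under 0.05, 11 members were lower, against 15.9% of all genes tested, and 1 was higher, against 13.7%. By direction alone, 27 members were lower with both shRNAs, where 42.6% of all genes and 44.9% of protein-coding genes tested were. Higher with both were 14 members, 42.4% of all genes and 41.2% of protein-coding genes tested. The median log2 change of the 46 members was -0.06, beside 0.0005 for all genes tested. Of the 46 members, 34 stayed within 1.25-fold of the control with both shRNAs, as did 48.6% of all genes and 51.8% of protein-coding genes tested. At least 1.5-fold lower with both were 3 members (6.52%), a share near the 7.21% of all genes and 7.38% of protein-coding genes tested. Those 3 were PSMA4, PSMD12 and PSMD5. At least 1.5-fold higher with both were 0 members, 6.03% of all genes and 3.93% of protein-coding genes tested. The genes tested include some at levels below every measured member, and the part of expression level in these shares was not tested.

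When only protein-coding genes were tested, limma called 8 members lower, where 11.3% of the genes in that test were, and 1 higher, where 7.11% were. The 8 were PSMA4, PSMB4, PSMB9, PSMC3, PSMD3, PSMD11, PSMD12 and PSMD5, and the higher one was PSMC5. They come from 6 of the classes and from both the core and the cap. Within a gene, only the spread between the shRNA libraries, which hold different hairpins, informs the error (1 residual degree of freedom). limma combines it with a variance estimated across the genes tested, and the lone control is assumed to vary like the shRNA libraries.

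**Figure D2:**
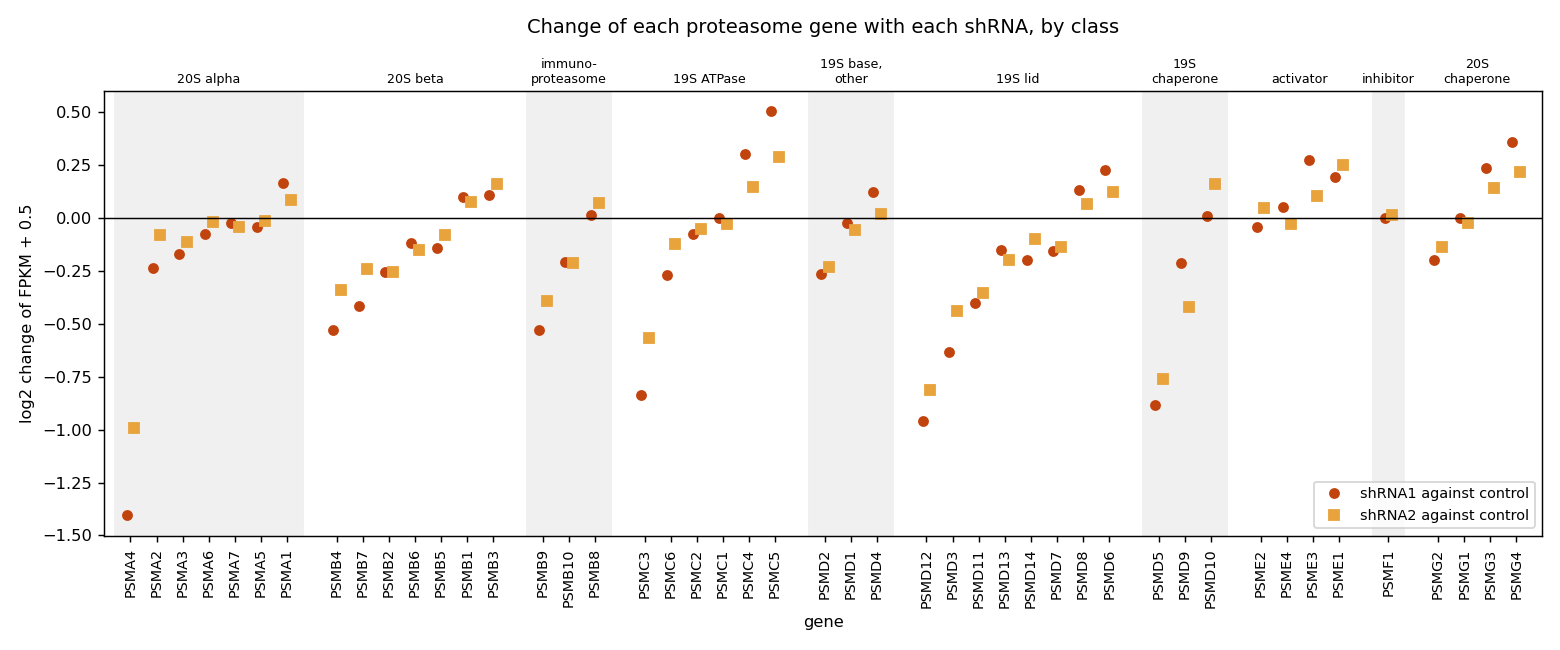
Log2 change of FPKM + 0.5 against the control for each measured gene, 1 point for shRNA1 and 1 for shRNA2, ordered within its class. In every class with more than 1 measured gene except the activators, the lowest members lie below 0 with both shRNAs; PSMA4 is farthest below, and PSMC5 farthest above.

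The alpha ring held the member with the lowest change. PSMA4, an alpha subunit on the plus strand of chromosome 15 (GRCh38 78540405 to 78552419), was at 111 FPKM with shRNA1 and 148 with shRNA2, against 294 in the control. Both shRNA levels were thus far below the control, at 37.7% and 50.1% of it. The deposited bounds were 69.5 to 152 FPKM with shRNA1, 93.7 to 202 with shRNA2 and 190 to 399 in the control, so the shRNA1 interval lay wholly below that of the control and the shRNA2 interval overlapped it at its edge. PSMA4 was the only member with this property for shRNA1, which held for 0.671% of all genes tested, and no member had it for shRNA2 or for both shRNAs (0.221% of all genes in each case). Nor did any member have both intervals above the control, as 0.0839% of all genes did. The log2 change was -1.20 (SE 0.20), with a limma adjusted p (Benjamini-Hochberg) of 0.0842 over all genes and 0.00621 to 0.263 over the alternatives. Among the 14 measured core genes PSMA4 ranked 11th with shRNA1 and 9th with shRNA2, and 4th in the control.

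The other 6 measured alpha subunits stayed within 1.25-fold of the control with both shRNAs. PSMA6 was at 347 and 361 FPKM with the shRNAs and 366 in the control, PSMA7 at 231 and 228 against 235, and PSMA5 at 61.5 and 62.7 against 63.4. PSMA2, which shares its locus with MRPL32, was at 191 and 212 FPKM with the shRNAs and 224 in the control, the second largest difference of this class (log2 change -0.16, SE 0.10, limma adjusted p of 0.361). PSMA3 was at 199 and 207 FPKM with the shRNAs and 224 in the control. PSMA1 alone was higher with both, at 126 and 119 FPKM against 112.

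Among the 7 constitutive beta subunits, PSMB4 and PSMB7 differed most from the control. PSMB4, a structural subunit without a cutting site, was at 329 FPKM with shRNA1 and 376 with shRNA2, against 475 in the control, a log2 change of -0.43 (SE 0.12; limma adjusted p of 0.120, and 0.0357 to 0.303 over the alternatives). It was the most abundant core transcript in the control, and with both shRNAs PSMB3, another structural subunit, stood above it. PSMB3 was at 501 and 520 FPKM with the shRNAs and 465 in the control. PSMB7, which carries the trypsin-like site, was at 207 and 234 FPKM with the shRNAs and 277 in the control (log2 change -0.33, SE 0.11, limma adjusted p of 0.154).

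The other two cutting subunits differed less. PSMB5, with the chymotrypsin-like site, was at 95.4 and 99.6 FPKM with the shRNAs and 105 in the control (log2 change -0.11, SE 0.08, limma adjusted p of 0.419). PSMB6, with the caspase-like site, was at 131 and 128 FPKM with the shRNAs and 142 in the control (log2 change -0.13, SE 0.08, limma adjusted p of 0.317). Of the structural subunits, PSMB2 had 52.3 FPKM with either shRNA and 62.6 in the control, and PSMB1 had 264 and 260 FPKM with the shRNAs and 247 in the control. Summed over alpha and beta, the constitutive core had 2847 FPKM with shRNA1 and 3007 with shRNA2, against 3293 in the control. Its genes were less even in level with the shRNAs, with a highest-to-lowest ratio of 9.57 and 9.93 with the shRNAs and 7.59 in the control.

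The immunoproteasome was a minor fraction of the cutting subunits in all 3 libraries. PSMB8, PSMB9 and PSMB10 summed to 0.168 and 0.164 of PSMB5, PSMB6 and PSMB7 with the shRNAs, and to 0.154 in the control. PSMB8, the counterpart of PSMB5, was at 44.5 and 46.4 FPKM with the shRNAs and 44.1 in the control, and its log2 change of 0.04 (SE 0.09, limma adjusted p of 0.762) turned below 0 once every library was scaled to one total. PSMB9, the counterpart of PSMB6, was at 13.2 and 14.6 FPKM with the shRNAs and 19.3 in the control (log2 change -0.46, SE 0.12; limma adjusted p of 0.110, and 0.0410 to 0.259 over the alternatives). PSMB10, the counterpart of PSMB7, was at 14.96 and 14.9 FPKM with the shRNAs and 17.4 in the control (log2 change -0.21, SE 0.10, limma adjusted p of 0.237).

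Set against their partners, the 3 immunosubunits differed in direction. The PSMB8 to PSMB5 ratio was 0.467 and 0.465 with the shRNAs and 0.420 in the control, and the PSMB10 to PSMB7 ratio was 0.0722 and 0.0639 against 0.0627. The PSMB9 to PSMB6 ratio was 0.101 and 0.114 with the shRNAs, below the 0.136 of the control. The division of reads at this locus is uncertain, since PSMB8 and PSMB9 overlap each other and PSMB8-AS1, and PSMB9 also overlaps TAP1. The deposited bounds of PSMB9 start at 0 FPKM in every library and end at 31.3 and 34.5 with the shRNAs and 44.3 in the control.

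Genes of interferon signalling and antigen processing outside the proteasome were lower with both shRNAs in 13 of 14 measured cases and higher with both in none, beside 42.6% and 42.4% of all genes tested, with a median log2 change of -0.34. None of them passed limma over all genes, and 2 of the 14, TAP1 among them, were called lower when only protein-coding genes were tested, beside 11.3% of the genes in that test. TAP1, a subunit of the peptide transporter whose gene adjoins PSMB9, was at 28.5 and 31.6 FPKM with the shRNAs and 43.0 in the control (log2 change -0.51, SE 0.10, limma adjusted p of 0.0936). TAP2, the partner of TAP1, was at 6.45 and 11.9 FPKM with the shRNAs and 18.1 in the control. Its log2 change was -1.42 with shRNA1 and -0.58 with shRNA2 (SE of their mean 0.38, limma adjusted p of 0.184). The deposited bounds of TAP2 overlapped, at 2.98 to 9.91 FPKM with shRNA1, 0 to 25.9 with shRNA2 and 0 to 41.4 in the control. Those of NLRC5 and ERAP2, also lower with both shRNAs, start at 0 FPKM in every library. IRF1, a transcription factor that drives immunoproteasome genes, was at 5.69 and 6.55 FPKM with the shRNAs and 8.04 in the control.

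In the ATPase ring of the 19S base, PSMC3 was lower with both shRNAs and PSMC5 higher with both. PSMC3, on chromosome 11 (GRCh38 47418769 to 47426473, minus strand), was at 130 FPKM with shRNA1 and 156 with shRNA2, against 232 in the control, thus at 55.9% and 67.4% of it. The log2 change was -0.70 (SE 0.14; limma adjusted p of 0.0929, and 0.0124 to 0.276 over the alternatives). PSMC5, which overlaps FTSJ3 on chromosome 17, was at 131 and 113 FPKM with the shRNAs and 92.3 in the control, thus at 142% and 122% of it. Its log2 change was 0.40 (SE 0.12; limma adjusted p of 0.142, and 0.0498 to 0.344 over the alternatives), and the deposited bounds overlapped among all 3 libraries. Among the 17 cap genes PSMC5 ranked 4th with shRNA1 and 6th with shRNA2, and 10th in the control.

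The other ATPases were closer to the control. PSMC4 was at 114 and 103 FPKM with the shRNAs and 92.7 in the control, and PSMC6 at 121 and 134 against 145. PSMC1 was at 60.1 and 58.8 FPKM with the shRNAs and 60.1 in the control, and PSMC2 at 71.9 and 73.2 against 75.8. Of the non-ATPase subunits of the base, PSMD2, the most abundant cap transcript in every library, was at 354 and 363 FPKM with the shRNAs and 425 in the control (log2 change -0.25, SE 0.08, limma adjusted p of 0.157). The ubiquitin receptor PSMD4 was at 256 and 238 FPKM with the shRNAs and 235 in the control, a log2 change of 0.07 (SE 0.09, limma adjusted p of 0.620) that turned below 0 once every library was scaled to one total. The scaffold subunit PSMD1 was at 70.5 and 69.1 FPKM with the shRNAs and 71.8 in the control.

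The lid held 3 of the subunits that were lowest. PSMD12, on chromosome 17 (GRCh38 67337916 to 67366627, minus strand), was at 30.4 FPKM with shRNA1 and 33.7 with shRNA2, against 59.5 in the control, thus at 51.0% and 56.6% of it. The log2 change was -0.89 (SE 0.11; limma adjusted p of 0.0829, and 0.00542 to 0.227 over the alternatives). It was already the least abundant of the 17 cap subunits in the control, and the highest-to-lowest ratio among these subunits was 11.7 and 10.8 with the shRNAs and 7.15 in the control. That ratio has PSMD12 as its lowest gene in every library. The standard deviation over these subunits as a percentage of their mean went the other way, at 68.1% and 67.6% with the shRNAs and 71.2% in the control. PSMD3, also on chromosome 17, was at 87.2 and 99.7 FPKM with the shRNAs and 135 in the control (log2 change -0.53, SE 0.11; limma adjusted p of 0.0971, and 0.0186 to 0.272 over the alternatives). PSMD11, a further lid subunit, was at 87.2 and 90.004 FPKM with the shRNAs and 115 in the control (log2 change -0.38, SE 0.08; limma adjusted p of 0.0964, and 0.0301 to 0.227 over the alternatives).

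The remaining 5 lid genes stayed within 1.25-fold of the control with both shRNAs. PSMD14, the deubiquitinase of the lid, was at 61.3 and 65.6 FPKM with the shRNAs and 70.3 in the control, and PSMD7, its non-catalytic partner, at 110 and 111 against 122. PSMD13 was at 72.7 and 70.4 FPKM with the shRNAs and 80.8 in the control. A pair of lid subunits was higher with both shRNAs, PSMD8 at 165.6 and 158 FPKM against 151 in the control, and PSMD6 at 73.0 and 67.8 FPKM against 62.3. Summed over ATPases, base and lid, the 17 cap genes had 1996 FPKM with shRNA1 and 2003 with shRNA2, against 2227 in the control.

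**Figure D3:**
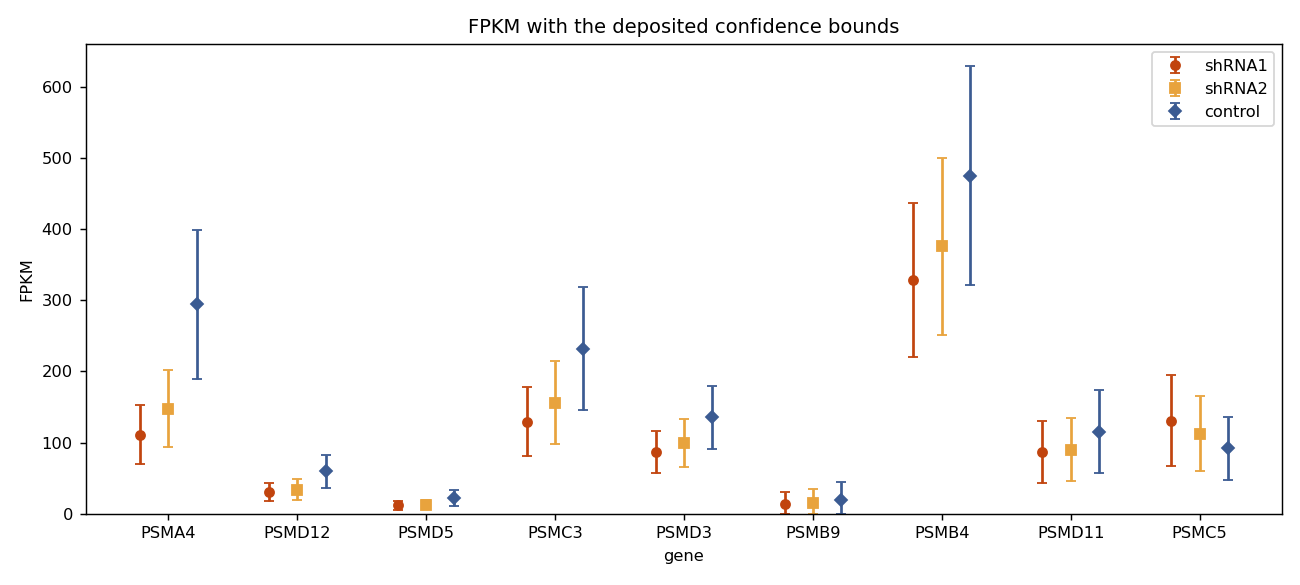
FPKM of the 9 genes called when only protein-coding genes were tested, with the authors' deposited lower and upper bounds as bars, for shRNA1, shRNA2 and control. The shRNA1 bar of PSMA4, from 69.5 to 152 FPKM, is the only one clear of its control bar, which runs from 190 to 399.

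Of the chaperones of the base, PSMD5 and PSMD9 were lower with both shRNAs and PSMD10 was higher with both. PSMD5, which holds base subunits before assembly, was at 11.9 FPKM with shRNA1 and 13.0 with shRNA2, against 22.4 in the control (log2 change -0.82, SE 0.11; limma adjusted p of 0.0829, and 0.00819 to 0.227 over the alternatives). The gene lies on chromosome 9 (GRCh38 120815496 to 120842984, minus strand). The row named PSMD5-AS1 was at 9.25 and 9.41 FPKM with the shRNAs and 7.56 in the control, and whether reads were counted by strand is not given in the sources used here. PSMD9 was at 49.2 and 42.5 FPKM with the shRNAs and 57.0 in the control (log2 change -0.32, SE 0.12, limma adjusted p of 0.188). PSMD10, known as gankyrin, was at 34.7 and 38.6 FPKM with the shRNAs and 34.5 in the control.

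The PSMG chaperones, which build the core, had a median log2 change of 0.09, which was 0.012 once every library was scaled to one total. Their summed FPKM, knockdown over control, was 1.02 as deposited and 0.966 with that scaling. PSMG4 was at 17.5 and 15.8 FPKM with the shRNAs and 13.5 in the control (log2 change 0.29, SE 0.12, limma adjusted p of 0.198), with deposited bounds from about 1 FPKM to 33.9, 30.4 and 26.0. PSMG3 was at 71.6 and 67.1 FPKM with the shRNAs and 60.8 in the control (log2 change 0.19, SE 0.09, limma adjusted p of 0.242). PSMG1 had 53.6 and 52.8 FPKM with the shRNAs and 53.6 in the control, and PSMG2 had 58.9 and 61.5 FPKM against 67.6. POMP, which guides the last steps of core assembly and was not chosen by name, was at 59.8 and 64.6 FPKM with the shRNAs and 63.3 in the control (log2 change -0.03, SE 0.09, limma adjusted p of 0.868).

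None of the 4 activators was lower with both shRNAs in the values as deposited, while PSME4 was once every library was scaled to one total. PSME1, a subunit of the interferon-inducible cap, was at 196 and 205 FPKM with the shRNAs and 172 in the control (log2 change 0.22, SE 0.08, limma adjusted p of 0.176). Its partner PSME2 was at 131 and 140 FPKM with the shRNAs and 135 in the control. PSME3, the nuclear activator, was at 60.7 and 53.9 FPKM with the shRNAs and 50.2 in the control (log2 change 0.19, SE 0.11, limma adjusted p of 0.318). PSMF1, a proteasome inhibitor in vitro, was at 50.4 and 50.98 FPKM with the shRNAs and 50.4 in the control (log2 change 0.007, SE 0.08, limma adjusted p of 0.957, turning below 0 with the same total).

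Members with near-identical copies could exchange reads with them, which was not tested. The 31 rows of proteasome pseudogenes were listed at no more than 2.67 and 2.70 FPKM with shRNA1 and shRNA2, and 2.80 in the control.

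A short stretch of sequence was present in the transcripts of some members and not of others. The 7-letter word TGGTGCA was taken from an earlier examination of these same data across all genes, so its presence here is a description and not independent support. In 1 transcript per gene (GENCODE release 29, the APPRIS principal isoform), 14 of the 46 measured members held the word, or 30.4%, as did 28.0% of protein-coding genes tested. It lay in the 3' UTR of 6 members, in the coding part alone of 8, and nowhere in the transcript of 32. The stretches around the word in the 3' UTR are shown because they include the 3 members at least 1.5-fold lower, with the word in capitals and 10 bases on either side, in order of the log2 change.
PSMA4: tttttttaacTGGTGCAgtgggaaaat
PSMD12: catttgcaatTGGTGCAaaaatacaga
PSMD5: tttttcaatgTGGTGCAatatatacaa
PSMD11: aatcctcattTGGTGCAtctgtattcc
PSMD9: aaccgcaagcTGGTGCAccctgtgtca
PSMC2: agcagtaaagTGGTGCAataaagcaga

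The 6 members with the word in the 3' UTR had a median log2 change of -0.60 and were all lower with both shRNAs, from -1.20 for PSMA4 to -0.06 for PSMC2. The 40 without it there had a median of -0.03, and 21 of them were lower with both. The same split over protein-coding genes tested gave medians of -0.16 for the 1307 genes with the word in the 3' UTR and -0.0005 for the 10206 without. Of these genes, 59.1% and 43.1% were lower with both shRNAs. At least 1.5-fold lower with both shRNAs were 3 of the 6 members with it and 0 of the 40 without, beside 15.2% and 6.36% of those protein-coding genes. PSMD9 held a further copy in its coding part.

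Among the 8 members with the word in the coding part alone, the median log2 change was -0.21, beside -0.09 for protein-coding genes of that kind. The stretches of the pair with the lowest and of the one with the highest change are given in the same form.
PSMC3: ggcccccagcTGGTGCAgatgttcatt
PSMB4: ccactggttaTGGTGCAtacttggctc
PSME1: tatcggcagcTGGTGCAcgagctggat

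PSMC3 and PSMB4 were lower with both shRNAs, while PSME1 was higher with both, so members that hold the word did not all go one way. The other 5 of this group were PSMB7, PSMD2, PSMD13, PSME2 and PSME4, with log2 changes from -0.33 for PSMB7 to 0.01 for PSME4. The 32 members without the word had a median of -0.02, and PSMD3 (-0.53) and PSMB9 (-0.46) had the lowest changes among them. In another annotated transcript alone the word was held by PSMD3, which was lower with both shRNAs, and by PSMD4, PSME3 and PSMG4, which were higher with both. The members with the word also had longer transcripts, with a median of 2919 bases beside 1496 for those without, and the part of transcript length in the split was not tested. The reverse complement of the word was present in 5 members (10.9%, beside 24.9% of protein-coding genes tested). Their median log2 change was 0.007, beside -0.06 for the 41 without it. Over protein-coding genes tested the order was reversed, with medians of -0.03 with the reverse complement and -0.01 without.

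**Figure D4:**
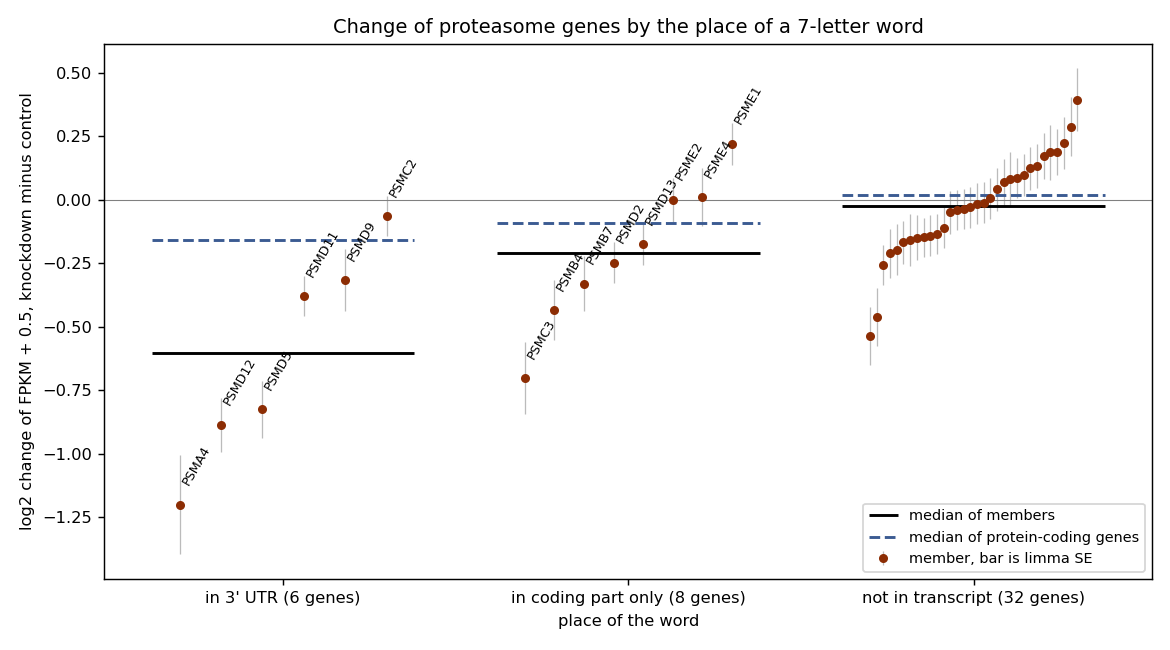
Log2 change of each measured proteasome gene, knockdown minus control, with limma SE bars, split by where the word TGGTGCA lies in its transcript (3' UTR, coding part alone, or absent). Black lines are medians of the members (-0.60, -0.21 and -0.02) and dashed blue lines those of all protein-coding genes of the same kind (-0.16, -0.09 and 0.02).

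Promoter motifs were also searched. Because the word was taken from these same data, its split and those by promoter motif cannot be weighed against each other. Promoter windows, 250 bases before to 50 after the start in RefSeq (GRCh38.p14), were at hand for 40 of the 46 measured members. Several members, PSMA4 and PSMB8 among them, had more than a single window, and a motif in any of them was counted. The core of the antioxidant response element, TGACNNNGC on either strand, is the site through which NFE2L1 raises proteasome genes together. It was found in 15 of the 40 (37.5%), beside 19.7% of protein-coding genes tested and 16.1% of all promoters. The median log2 change was -0.04 for members with it and -0.11 for those without. PSMA4 has it in a part of its windows. PSMD12, PSMD5 and PSMD3 all have it, and their windows are shown with the element in capitals, each read along the strand of the gene.
PSMD12 (chr17:67366528-67366827, minus strand): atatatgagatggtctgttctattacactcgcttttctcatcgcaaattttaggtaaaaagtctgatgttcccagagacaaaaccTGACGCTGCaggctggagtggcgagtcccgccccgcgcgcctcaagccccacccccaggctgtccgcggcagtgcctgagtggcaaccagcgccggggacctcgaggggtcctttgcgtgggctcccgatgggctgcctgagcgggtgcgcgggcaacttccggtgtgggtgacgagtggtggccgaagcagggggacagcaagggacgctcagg
PSMD5 (chr9:120842873-120843172, minus strand): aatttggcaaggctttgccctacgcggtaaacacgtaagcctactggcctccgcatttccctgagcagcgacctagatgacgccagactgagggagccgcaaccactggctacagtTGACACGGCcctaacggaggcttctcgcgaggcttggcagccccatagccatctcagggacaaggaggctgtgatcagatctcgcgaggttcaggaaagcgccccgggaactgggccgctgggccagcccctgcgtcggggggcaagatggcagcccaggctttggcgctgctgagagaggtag
PSMD3 (chr17:39980557-39980856, plus strand): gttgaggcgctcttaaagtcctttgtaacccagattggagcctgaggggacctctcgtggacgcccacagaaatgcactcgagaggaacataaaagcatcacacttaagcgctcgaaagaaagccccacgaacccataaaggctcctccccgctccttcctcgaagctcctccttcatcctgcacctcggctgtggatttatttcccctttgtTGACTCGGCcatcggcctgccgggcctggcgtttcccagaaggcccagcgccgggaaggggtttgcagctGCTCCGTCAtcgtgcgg

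The element was also in the windows of PSMC4, PSMC5 and PSME1, all higher with both shRNAs. It was absent from the windows of PSMC3, PSMB4 and PSMD11, all lower with both shRNAs. NFE2L1 itself was at 143 and 134 FPKM with the shRNAs and 163 in the control (log2 change -0.23, SE 0.09, limma adjusted p of 0.180). Other motifs were searched on both strands. The CCAAT box (CCAAT) was in 47.5% of the 40 members and 43.8% of protein-coding genes tested. Members with it had a median log2 change of -0.11 and those without -0.05. In the same order, an ETS site (CCGGAAG) had 35% and 23.8%, with medians of -0.06 and -0.12. E2F sites (TTTCCCGC or TTTGGCGC) had 10% and 4.80%, with medians of -0.09 and -0.09. The interferon-gamma site (TTCNNNGAA) had 17.5% and 8.38%, with medians of -0.11 and -0.06. The GC box (GGGCGGG) had 55% and 63.0%, with medians of -0.04 and -0.12. The interferon-stimulated response element was in 7 of the 40 members (17.5%, beside 3.78% of protein-coding genes tested), which were PSMA4, PSMB4, PSMB8, PSMB10, PSME1, PSME2 and PSMG4. The median log2 change was 0.001 for members with it and -0.11 for those without. The window of PSMB10 is given with this element in capitals, since it belongs to an immunosubunit.
PSMB10 (chr16:67936801-67937100, minus strand): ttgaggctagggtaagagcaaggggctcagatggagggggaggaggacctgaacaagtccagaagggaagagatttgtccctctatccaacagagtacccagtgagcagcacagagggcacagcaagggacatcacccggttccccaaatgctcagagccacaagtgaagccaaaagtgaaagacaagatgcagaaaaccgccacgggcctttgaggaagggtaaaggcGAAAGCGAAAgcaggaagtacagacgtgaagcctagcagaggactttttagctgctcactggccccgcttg

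Genes that work with the proteasome were also examined in lists. None of the 10 measured genes of assembly and further subunits passed limma over all genes or with protein-coding genes alone. Their median log2 change was -0.04, with 5 lower and 2 higher with both shRNAs, beside 42.6% and 42.4% of all genes tested. USP14, a deubiquitinase of the cap, was at 10.01 and 12.2 FPKM with the shRNAs and 8.60 in the control, and AKIRIN2, which brings the proteasome into the nucleus, at 7.02 and 7.87 FPKM against 9.22. Of 10 measured genes of proteasome transcription, 4 were lower and 4 higher with both shRNAs, beside the same 42.6% and 42.4%. None passed limma over all genes. When only protein-coding genes were tested, 3 were called lower (MAFG, NFYC and NFE2L3) and 1 higher (NFYA), beside 11.3% and 7.11% of the genes in that test. MAFG, a small MAF partner of NFE2L1, was at 3.16 and 3.68 FPKM with the shRNAs and 7.78 in the control (log2 change -1.08, SE 0.16, limma adjusted p of 0.0832), while NFYA, a CCAAT-binding factor, was at 8.47 and 7.47 FPKM against 5.18 (log2 change 0.57, SE 0.14, limma adjusted p of 0.109). NFYC, of the same complex as NFYA, was at 7.62 and 8.15 FPKM with the shRNAs and 11.6 in the control, and NFE2L3, a relative of NFE2L1, at 5.10 and 5.47 FPKM against 8.05.

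Of 17 genes of ubiquitin supply and substrate delivery, 7 were lower and 6 higher with both shRNAs, beside 42.6% and 42.4% of all genes tested. None passed limma over all genes. UBQLN4, a shuttle that carries ubiquitinated proteins to the proteasome, was at 7.86 and 10.1 FPKM with the shRNAs and 16.2 in the control (log2 change -0.83, SE 0.18, limma adjusted p of 0.0998). The autophagy receptor SQSTM1 was at 111 and 113 FPKM with the shRNAs and 165.99 in the control (log2 change -0.56, SE 0.08, limma adjusted p of 0.0829). When only protein-coding genes were tested, limma called 2 of the 17 lower, UBQLN4 and SQSTM1, and 1 higher, the shuttle RAD23B, shares near the 11.3% and 7.11% of all genes in that test. RAD23B was at 248 and 240 FPKM with the shRNAs and 183 in the control.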

How the data were processed

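RNA-seq libraries of T47D cells, 2 with ERINA knockdown and 1 control, were compared. The deposited table gives FPKM per gene, with a lower and an upper bound (unit signal here, the limits of the FPKM interval) and a status, per the file headers. The submitters' processing notes name STAR, RSEM and GRCh38. Which tool made the bounds and status columns is not stated, so what interval the bounds give is unknown. Their versions, the gene annotation, strand setting, filters and scaling were not given in the sources used here.

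Members and gene lists were chosen with earlier results of these data known. Log2(FPKM + 0.5) of genes whose FPKM averaged 1 or more was fitted with limma 3.58.1 in R 4.3.3 (eBayes with a trend, Benjamini-Hochberg, threshold 0.05). The fit was tested on simulated data whose planted changes were larger than that of any member. Noise there was the same in every library, so that test cannot show whether the lone control varies like the shRNA libraries. No count model was used, because the values are not counts. Fuller values were given for the pair of genes with the largest absolute change in each class, for the cutting subunits and their counterparts and for PSMD11, which was added with its values seen; the genes named from the other lists were chosen with their values seen. Gene types, overlaps and transcripts came from GENCODE release 29, with 98.96% of rows matched. The bounds are the authors', and FPKM carry no counting interval here. A result for 1 gene of the lists is not reported here.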

Additional observations from a re-analysis of the deposited data

How the results depend on the processing

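The pseudocounts of 0.1 and 1 FPKM turned the sign of 0 members, and the filters and the options of the test leave a member's change as it is. PSMC1, PSME2, PSME4, PSMF1 and PSMG1 had opposite signs with the 2 shRNAs. Scaling the libraries to the same total FPKM, which shifts shRNA1 by -0.12 and shRNA2 by -0.03 on the log2 scale, turned PSMB8, PSMD4, PSME2, PSME4 and PSMF1 below 0 and left 9 members higher with both shRNAs. With that scaling the median log2 change was -0.20 for the 20S core, -0.22 for the 19S subunits, -0.28 for the immunoproteasome, 0.012 for the PSMG chaperones and -0.13 for all members, beside -0.07 for all genes tested, and the summed FPKM, knockdown over control, were 0.843, 0.851, 0.872, 0.966 and 0.862 in the same order. The immunoproteasome median was -0.21 with a pseudocount of 0.1 FPKM and -0.20 with 1 FPKM. No member passed limma (Benjamini-Hochberg) under the other pseudocounts and filters, without a trend, or with the same total. The robust option called 4 members lower (PSMA4, PSMC3, PSMD12 and PSMD5), and testing protein-coding genes alone called 8 lower and 1 higher. The cause of these differences was not tested. The ERINA change was -3.12 with the robust option and -3.20 with the same total, both past the threshold it missed over all genes (limma adjusted p, Benjamini-Hochberg, of 0.0374, 0.0331 and 0.0816). Leaving out either shRNA library gave medians from -0.13 to -0.080 for the 20S core, -0.15 to -0.10 for the 19S subunits and -0.077 to -0.053 for all members, with no test possible. No paired analysis was possible because the control group holds 1 library.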
